A study of Danio rerio with 6 samples.

Results

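Collagen genes were followed in kidney marrow, where adult zebrafish make their blood, in 3 tet2 -/- libraries (called tet2 mutant here) and 3 wild type libraries (tet2 wt/wt). Members were chosen by name alone: every row of the count tables whose gene symbol, with case ignored, reads col, a number, a and a number, where a letter for a gene copy may follow. The rule found 56 of 31484 genes, which belong to 22 collagen types. All fish were 3 to 5 months old, and the marrow was broken into a cell suspension by pipetting and passed through a filter before its RNA was sequenced, with no sort named in the labels. Allele, sex and the number of fish behind a library are not in the labels. The series calls the 3 libraries of each genotype biological replicates, and p-values set the genotype difference against the spread between these libraries. The questions were which collagens this tissue expresses, how fibrillar and basement membrane collagens compare, and whether their levels differ between tet2 mutant and wild type marrow.

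Collagens are secreted proteins whose 3 chains wind into a triple helix, which requires glycine at regular steps along the chain. Fibrillar collagens, with type I the main one of bone, skin and tendon, assemble into cross-banded fibres, and types V and XI sit within those fibres and control their thickness. Type IV collagens form the sheet-like network of basement membranes, which underlie epithelia such as the kidney tubules and surround vessels and muscle fibres, and types XV and XVIII are also found there. Type VI forms beaded filaments between fibres and basement membranes, type VII forms the anchoring fibrils of skin, the fibril-associated types (IX, XII, XIV, XVI, XIX and XXI among those found) decorate fibres, types VIII and X form short-chain networks, and types XIII, XVII, XXIII and XXV span the cell membrane. In blood-forming tissue collagens come mostly from stromal, vessel-lining and other supporting cells rather than from blood cells. Tet2 encodes an enzyme that oxidises 5-methylcytosine in DNA.

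Library totals ran from 46637322 to 49229143 counts in tet2 mutants and from 41285460 to 47228518 in wild type. The targeted gene, TET2 (ENSDARG00000076928), had 51.1, 45.1 and 30.5 CPM (counts scaled to a common library size) in tet2 mutant libraries 1, 2 and 3, and 48.1, 52.5 and 48.1 CPM in wild type libraries 1, 2 and 3. Its log2 fold change was -0.23 (standard error, SE, 0.20; adjusted p = 0.696, edgeR with Benjamini-Hochberg). A gene is said to pass, or to be called, at an adjusted p under 0.05 over all genes tested. An undescribed allele need not lower the transcript, so this level neither supports nor contradicts the labels. The tissue label was met by red cell and neutrophil transcripts: the summed level of the 9 erythroid genes listed was 9057 to 15400 CPM in mutants and 12190 to 16880 CPM in wild type, and that of the 6 neutrophil genes was 12000 to 16930 CPM in mutants and 10680 to 22020 CPM in wild type. Egg transcripts set libraries apart: the 24 egg and germ cell genes summed to 619, 438 and 3655 CPM in tet2 mutants 1, 2 and 3, and to 71.0, 53.0 and 1090 CPM in wild type 1, 2 and 3. Liver transcripts did so too: 16 genes summed to 30.8, 2677 and 93.5 CPM in tet2 mutants 1, 2 and 3. In wild type 1, 2 and 3 they summed to 62.7, 861 and 154 CPM, so library 2 was the highest in both genotypes.

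Collagen reads were a small part of each library. They made up 0.0181%, 0.0281% and 0.0382% of all counts in tet2 mutants 1, 2 and 3, and 0.031%, 0.0337% and 0.0371% in wild type 1, 2 and 3. The lowest and the highest share were thus both from mutants, and the genotypes overlapped. Of the 56 members, 54 had at least 1 count in every library and 31 averaged at least 1 CPM. A filter on low counts left 49 for testing.

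Type I collagen led in every library, and type IV and type VI came next. To compare genes, levels were divided by exon length and are given as CPM per kilobase. The 3 type I genes held 35.9% of the summed collagen level over the 6 libraries, the 6 type IV genes 17.5%, the 4 type VI genes 15.1% and the 5 type V genes 7.82%. The order of types IV and VI varied between libraries. Type VI stood above type IV in tet2 mutant 1 (4.23 against 4.01), tet2 mutant 3 (9.33 against 7.84) and wild type 1 (7.37 against 6.15), and below it in the others. By class, the 15 fibrillar genes held 47.0%, the 9 basement membrane genes 22.1% and the 12 fibril-associated genes 8.55%. The 10 members with the highest level held 70.6%. Even the highest of them, COL1A1, ranked 8116 among the 31484 genes by mean level per kilobase.

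**Figure D1:**
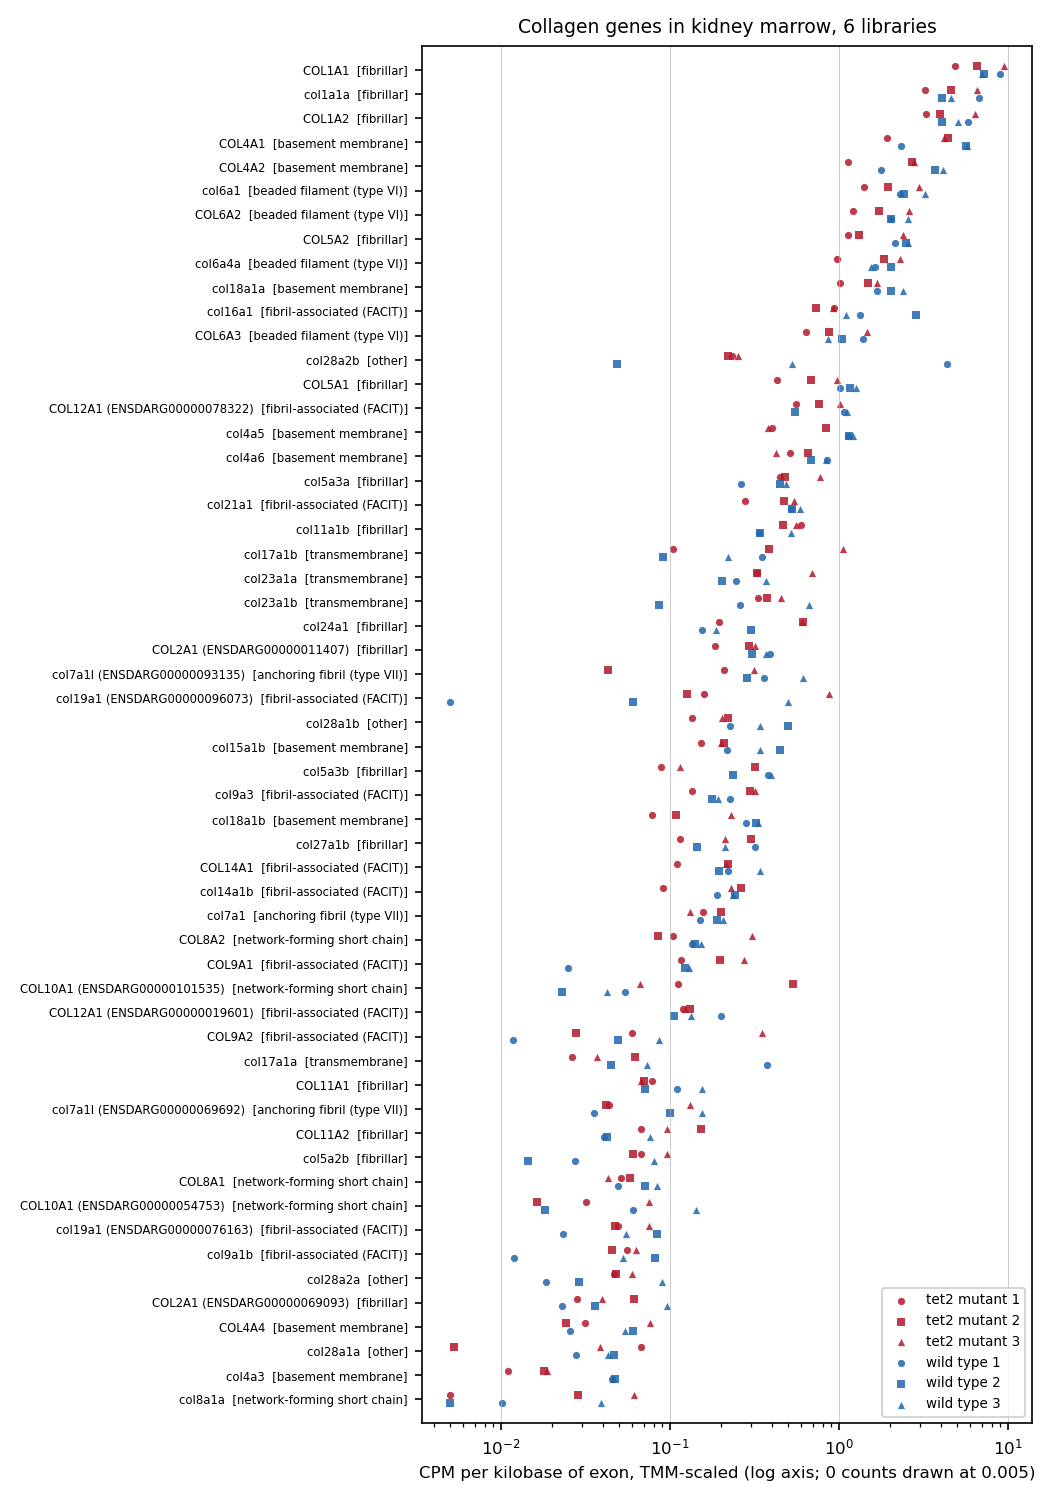
Level of each of the 56 collagen genes in CPM per kilobase of exon on a log axis, ordered from the highest mean count per kilobase at the top; red points are the 3 tet2 mutant libraries and blue points the 3 wild type libraries, with circle, square and triangle for libraries 1, 2 and 3. Type I genes stand at the top with COL4A1 and COL4A2 next, and tet2 mutant 1 is the lowest of the 6 libraries for 24 of the 49 genes tested.

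Type I collagen is built in zebrafish from 3 chains, encoded by COL1A1 (ENSDARG00000035809, chromosome 12, 3060966 to 3098750), col1a1a (ENSDARG00000012405, chromosome 3, 23090499 to 23108910) and COL1A2 (ENSDARG00000020007, chromosome 19, 41396101 to 41415860). All coordinates are whole genes on GRCz10, as the count tables give them. COL1A1 had 27.2, 36.8 and 53.4 CPM in tet2 mutants 1, 2 and 3, and 50.6, 40.5 and 39.2 CPM in wild type. For col1a1a the values were 19.5, 27.8 and 39.3 CPM in mutants, and 40.6, 24.7 and 27.7 CPM in wild type. COL1A2 reached 18.9, 22.9 and 36.8 CPM in mutants, and 33.5, 23.4 and 28.96 CPM in wild type. Each gene was lowest in tet2 mutant 1, and the genotypes overlapped for all of them. The log2 fold changes, mutant minus wild type, were -0.15 (SE 0.25), -0.10 (SE 0.30) and -0.13 (SE 0.27) for COL1A1, col1a1a and COL1A2, with adjusted p of 0.854 or more (edgeR, Benjamini-Hochberg). Without tet2 mutant 1 they were 0.05, 0.11 and 0.06, and without wild type 1 that of col1a1a was 0.13.

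The chains of one protein kept a narrow ratio to each other while their level varied. Per kilobase, COL1A1 stood above COL1A2 in all 6 libraries, by 1.48, 1.65 and 1.49 times in mutants and by 1.55, 1.77 and 1.39 times in wild type. The ratio of col1a1a to COL1A2 ran from 0.987 to 1.16 in mutants and from 0.915 to 1.16 in wild type, so these neighbours in the order of levels did not differ beyond their spread. Both alpha1-like genes together gave 2.59 ± 0.189 times COL1A2 in mutants and 2.59 ± 0.256 times in wild type (SD, n = 3 each). COL1A1 and col1a1a are copies of one ancestral gene, and how reads that match more than 1 place were counted is not given, so the split between them is uncertain. Both col1a1a and COL1A2 also overlap another annotated gene on the opposite strand.

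The other fibrillar genes had estimates on both sides of 0. COL5A2 had 5.70, 6.64 and 12.1 CPM in tet2 mutants 1, 2 and 3, and 10.8, 12.71 and 13.02 CPM in wild type. COL5A1 had 4.21, 6.66 and 9.45 CPM in mutants, all below its 9.93, 11.3 and 12.4 CPM in wild type. Their log2 fold changes were -0.58 (SE 0.31) and -0.73 (SE 0.31), with adjusted p of 0.523 and 0.421 (edgeR, Benjamini-Hochberg). The lowest estimate of the class was that of col5a3b (log2 fold change -0.95, SE 0.54; adjusted p = 0.556, edgeR with Benjamini-Hochberg). It had 0.505, 1.83 and 0.652 CPM in mutants, and 2.16, 1.34 and 2.255 CPM in wild type, with overlap. The genes col11a1b, col5a3a, col5a2b, COL11A2 and col24a1 had log2 fold changes above 0, between 0.44 and 1.13. The highest of these, col24a1, had 0.232, 0.73 and 0.712 CPM in mutants, and 0.182, 0.358 and 0.221 CPM in wild type (log2 fold change 1.13, SE 0.54; adjusted p = 0.48, edgeR with Benjamini-Hochberg). It had 8 to 36 counts a library, and tet2 mutant 1 lay within the wild type range. The cartilage collagen COL2A1 stood on 2 gene IDs at 0.968 to 1.68 and 0.168 to 0.365 CPM in mutants, and at 1.60 to 2.05 and 0.137 to 0.575 CPM in wild type.

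Summed fibroblast, cartilage and bone markers overlapped between genotypes, and nerve glia markers did not. The 12 fibroblast genes outside the collagens summed to 35.8, 39.1 and 58.7 CPM in tet2 mutants 1, 2 and 3, and to 37.9, 48.5 and 44.96 CPM in wild type. Tet2 mutant 1 was again the lowest and tet2 mutant 3 the highest, which was also the order of type I collagen among mutants. The fibroblast sum hid opposite changes: of 11 tested, 6 were below 0 and 5 above, and 0 passed. PDGFRA had 4.04, 6.98 and 8.52 CPM in mutants, all below its 8.95, 13.04 and 12.07 CPM in wild type. PDGFRB had 9.05, 7.28 and 9.63 CPM in mutants, all above its 3.48, 5.16 and 7.16 CPM in wild type. TCF21 was also higher without overlap, at 2.76, 2.36 and 2.69 CPM in mutants, and 0.888, 1.505 and 1.481 CPM in wild type. The 12 cartilage genes summed to 18.4 to 22.4 CPM in mutants and 19.6 to 27.2 CPM in wild type. The 10 bone genes summed to 36.8, 36.8 and 114 CPM in mutants, and to 34.2, 61.7 and 69.6 CPM in wild type. Most of the bone sum came from 2 genes: ALPL, at 22.7, 27.2 and 21.2 CPM in mutants and 31.6, 58.9 and 36.0 CPM in wild type, and PHEX, at 11.2, 7.07 and 88.2 CPM in mutants and 0.592, 0.764 and 29.8 CPM in wild type. The defining bone genes SP7, bglap and spp1 were each below 2 CPM in every library. The 9 nerve glia genes summed to 161.6 to 171.5 CPM in mutants and to 175 to 215 CPM in wild type, so every mutant lay below every wild type library. Their part in the collagen levels was not tested.

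**Figure D2:**
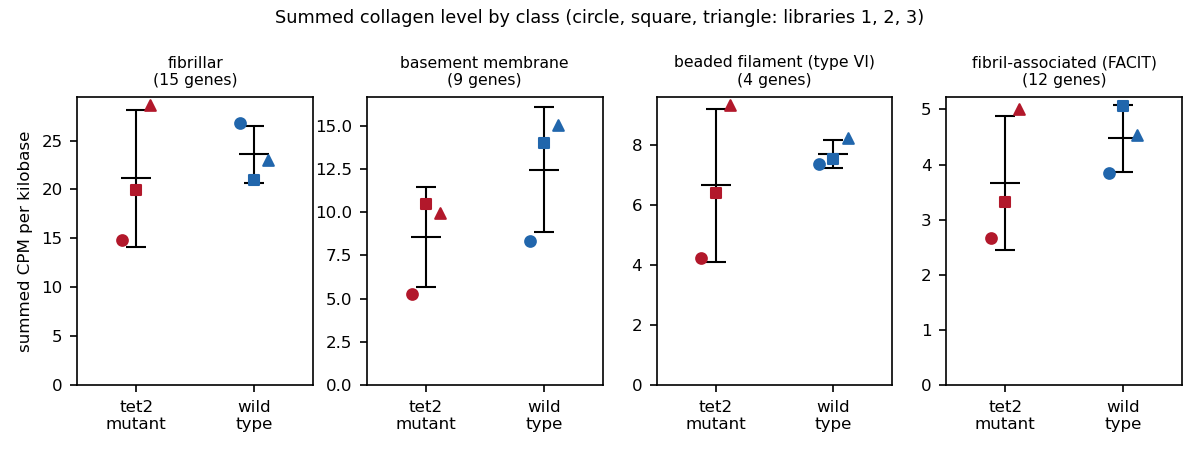
Summed CPM per kilobase of the fibrillar, basement membrane, type VI and fibril-associated collagen genes in each library, with tet2 mutants in red left of wild type in blue; the horizontal mark and bar are the mean and SD of 3 libraries, and symbols number the libraries. For each class the lowest library is tet2 mutant 1, and the genotypes overlap.

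Basement membrane collagens were lower in mutants by every gene's estimate, but none of them passed the test, which 0.301% of all genes did. All 9 genes had log2 fold changes below 0, from -1.53 to -0.08 with a median of -0.57, where 48.1% of all 21893 genes tested were below 0 and the median of all was 0.015. Their summed level was 39.7, 80.0 and 75.3 CPM in tet2 mutants 1, 2 and 3, and 60.6, 105 and 112 CPM in wild type. Each mutant sum was below the wild type sum of the same number, but the groups overlapped because wild type 1 lay below tet2 mutants 2 and 3. The log2 ratio of the mean sums was -0.51, and it ran from -0.74 to -0.26 when each library was left out in turn. Since these are bulk samples, fewer cells of a type and less RNA per cell cannot be told apart.

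Within type IV, the genes fell into a common pair and 2 rarer pairs. COL4A1 (ENSDARG00000055009, chromosome 9, 8652642 to 8691828) and COL4A2 (ENSDARG00000104110, chromosome 9, 8751910 to 8904769) encode the chains of the basement membrane network found in nearly every tissue. COL4A1 had 18.1, 41.6 and 39.2 CPM in tet2 mutants 1, 2 and 3, and 21.9, 52.9 and 53.9 CPM in wild type. For COL4A2 the values were 6.52, 15.68 and 15.99 CPM in mutants, and 10.2, 21.2 and 23.8 CPM in wild type. Library 1 was low in both genotypes, the genotypes overlapped, and each mutant library lay below the wild type library of the same number for both genes. The log2 fold changes were -0.38 (SE 0.44) and -0.53 (SE 0.44), with adjusted p of 0.772 and 0.685 (edgeR, Benjamini-Hochberg). With the replicate number as a block they were -0.36 and -0.55, with adjusted p of 0.203 and 0.122 (edgeR, Benjamini-Hochberg) and unadjusted p of 0.0262 and 0.00947. An unadjusted p under 0.05 was reached by 17.9% of all genes with the block, and its pairing was read from these data, not the labels. Per kilobase COL4A1 stood above COL4A2 by 1.70, 1.63 and 1.5 times in mutants and by 1.31, 1.53 and 1.39 times in wild type.

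The second pair was col4a5 and col4a6, and human mutations of COL4A5 cause the kidney disease Alport syndrome. For col4a5 (ENSDARG00000052063, chromosome 7, 50828152 to 50919360) the values were 2.59, 5.39 and 2.47 CPM in tet2 mutants, and 7.35, 7.43 and 7.85 CPM in wild type. All 3 mutant libraries lay below all 3 wild type libraries, with tet2 mutants 1 and 3 the lowest and tet2 mutant 2 between them and wild type. The estimate was 2.17-fold lower (log2 fold change -1.11, SE 0.34; adjusted p = 0.275, edgeR with Benjamini-Hochberg). DESeq2 called this gene, as the only member it called (Benjamini-Hochberg adjusted p = 0.032), where it called 4.13% of all genes, 2.46% as lower. Its partner col4a6 (ENSDARG00000052061, chromosome 7, 50645367 to 50827420) had 4.33, 5.52 and 3.56 CPM in mutants, and 7.13, 5.75 and 7.07 CPM in wild type (log2 fold change -0.57, SE 0.24; adjusted p = 0.416, edgeR with Benjamini-Hochberg). Those groups did not overlap either, although tet2 mutant 2 and wild type 2 nearly met. The ratio of col4a5 to col4a6 per kilobase was 0.776, 1.27 and 0.902 in mutants, and 1.34, 1.68 and 1.44 in wild type, again without overlap.

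The third pair was near the limit of detection. Between 5 and 20 counts per library fell on col4a3 (ENSDARG00000003395, chromosome 15, 36196895 to 36254825), whose human counterpart is also an Alport gene. It had 0.105, 0.172 and 0.178 CPM in tet2 mutants, and 0.433, 0.454 and 0.442 CPM in wild type, with no overlap. The estimate, 2.88-fold lower, had the smallest p of all members but did not pass (log2 fold change -1.53, SE 0.36; adjusted p = 0.156, edgeR with Benjamini-Hochberg). COL4A4, its neighbour, showed no such separation, at 0.337, 0.258 and 0.81 CPM in mutants, and 0.273, 0.645 and 0.575 CPM in wild type.

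**Figure D3:**
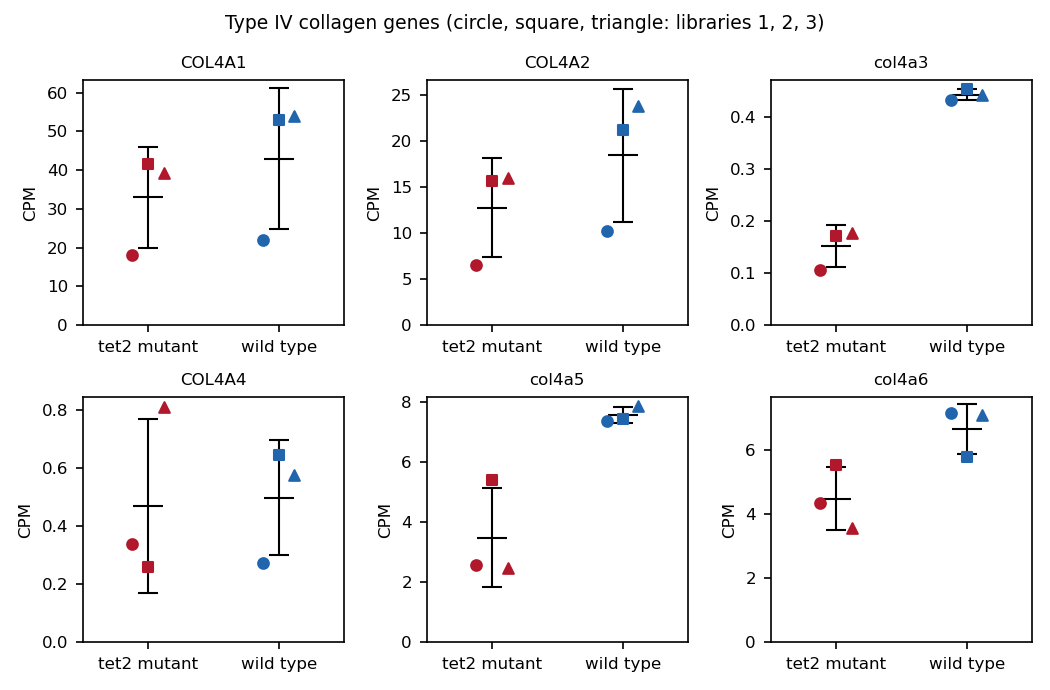
CPM of the 6 type IV collagen genes in each library, with tet2 mutants in red left of wild type in blue; the horizontal mark and bar are the mean and SD of 3 libraries, and circle, square and triangle are libraries 1, 2 and 3. The genotypes do not overlap for col4a3, col4a5 and col4a6, while COL4A1 and COL4A2 are low in library 1 of both genotypes.

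These pairs lie side by side in the genome. The starts of col4a6 and col4a5 face away from each other with 731 bases between the annotated genes, COL4A4 and col4a3 overlap by 538 bases at their starts in the same arrangement, and COL4A1 and COL4A2 are arranged likewise with 60081 bases and no annotated gene between them. Read strand was not given, so reads in the overlap of COL4A4 and col4a3 are of uncertain origin.

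Types XV and XVIII carry a fragment at their end that is known to restrain vessel growth. The more abundant of them, col18a1a, had 6.63, 9.81 and 11.03 CPM in tet2 mutants 1, 2 and 3, and 10.97, 13.3 and 15.6 CPM in wild type (log2 fold change -0.54, SE 0.24; adjusted p = 0.457, edgeR with Benjamini-Hochberg). Its copy col18a1b (ENSDARG00000095901, chromosome 6, 18619145 to 18668330) had 0.358, 0.494 and 1.05 CPM in mutants, and 1.30, 1.48 and 1.52 CPM in wild type, without overlap (log2 fold change -1.17, SE 0.44; adjusted p = 0.372, edgeR with Benjamini-Hochberg). The gene col15a1b also had no overlap, at 0.736 to 1.01 CPM in mutants and 1.05 to 2.15 CPM in wild type. There tet2 mutant 2 and wild type 1 nearly met (log2 fold change -0.83, SE 0.35; adjusted p = 0.427, edgeR with Benjamini-Hochberg). For col18a1b the wild type libraries lay close together, and tet2 mutant 3 was the mutant library nearest to them.

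Of cells that basement membranes border, summed kidney tubule, endothelial and skeletal muscle markers were lower in mutants, and epidermis markers overlapped. The 19 kidney tubule genes summed to 957, 1141 and 978 CPM in tet2 mutants 1, 2 and 3, and to 1169, 1544 and 1273 CPM in wild type. Of 18 tested, 12 were below 0 and 6 above, and SLC5A12, a lactate transporter, passed (log2 fold change -1.54, adjusted p = 0.0405, edgeR with Benjamini-Hochberg). In the other direction, cdh16 had 7.81, 4.34 and 4.09 CPM in mutants, and 0.433, 0.955 and 1.26 CPM in wild type (log2 fold change 2.61). Both SLC20A1 genes, at 158.7 to 344.1 CPM a library, were a large part of the sums and had log2 fold changes of 0.21 and 0.42. The 14 endothelial genes summed to 602, 864 and 753 CPM in mutants, and to 905, 1011 and 993 CPM in wild type, with 14 of 14 below 0 and 0 passing. The 23 skeletal muscle genes summed to 123, 59.7 and 109 CPM in mutants, and to 311, 348 and 267 CPM in wild type, with 19 of 19 tested below 0 and 0 passing. None of the tubule, endothelial and muscle sums overlapped between genotypes. The 11 epidermis genes did, at 122, 141 and 430 CPM in mutants, and 225, 104 and 316 CPM in wild type. Tet2 mutant 1 was lowest for tubule and endothelial genes, as it was for basement membrane collagens, but tet2 mutant 2 was lowest for muscle genes. With the replicate block, 6 tubule and 5 muscle genes passed, and 0 endothelial genes did, where 2.14% of all genes passed with the block and 0.301% without it. The part of these cells in the collagen levels was not tested.

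Type VI collagen overlapped between genotypes. Its 4 genes had log2 fold changes of -0.33 for col6a1, -0.26 for COL6A2, -0.15 for COL6A3 and -0.03 for col6a4a, with SE from 0.29 to 0.33 and adjusted p of 0.708 or more (edgeR, Benjamini-Hochberg). Summed, they reached 33.6, 51.2 and 75.0 CPM in tet2 mutants 1, 2 and 3, and 60.9, 59.9 and 60.7 CPM in wild type. The mutant libraries thus lay on both sides of a narrow wild type range. The pair col6a1 and COL6A2, which are neighbours on chromosome 11, kept a ratio per kilobase of 1.12 to 1.17 in mutants and 1.13 to 1.26 in wild type. COL6A3, which adds the third chain, varied more against COL6A2, from 0.50 to 0.56 in mutants and from 0.337 to 0.675 in wild type.

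Among fibril-associated collagens, col16a1 (ENSDARG00000009194, chromosome 19, 38886452 to 39048413) had the highest level per kilobase. It had 6.76, 5.28 and 6.66 CPM in tet2 mutants, and 9.63, 20.6 and 7.96 CPM in wild type, with no overlap (log2 fold change -1.03, SE 0.38; adjusted p = 0.358, edgeR with Benjamini-Hochberg). Wild type 2 alone stood far above the rest, and without it the log2 fold change was -0.50. The type IX genes of cartilage were the highest estimates among the fibril-associated class. COL9A2 had 0.232, 0.107 and 1.36 CPM in mutants, and 0.0455, 0.191 and 0.332 CPM in wild type (log2 fold change 1.57, SE 1.06; adjusted p = 0.624, edgeR with Benjamini-Hochberg). That value rested on tet2 mutant 3, without which it was -0.17. COL9A1 had 0.316, 0.537 and 0.751 CPM in mutants, and 0.0683, 0.334 and 0.354 CPM in wild type (log2 fold change 1.08, SE 0.63; adjusted p = 0.567, edgeR with Benjamini-Hochberg). The groups overlapped for both genes.

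Several large estimates rested on 1 library. Type XXVIII gene col28a2b (ENSDARG00000100781, chromosome 6, 3479561 to 3513320) had 38, 35 and 44 counts in tet2 mutants 1, 2 and 3, and 659, 7 and 82 counts in wild type 1, 2 and 3. In CPM these were 0.80, 0.752 and 0.87 in mutants, and 15, 0.167 and 1.81 in wild type. Wild type 1 thus exceeded wild type 2 by 89.7 times, the widest spread among members with a count in every library. The log2 fold change of -2.81 (SE 1.33; adjusted p = 0.477, edgeR with Benjamini-Hochberg) became -0.28 without wild type 1. The transmembrane collagen genes col17a1a and col17a1b, whose human counterpart anchors skin epithelium to its basement membrane, had estimates of opposite sign. The first had 0.126, 0.301 and 0.178 CPM in mutants, and 1.80, 0.215 and 0.354 CPM in wild type, for a log2 fold change of -1.96 that was -0.50 without wild type 1. The second had 0.547, 2.02 and 5.53 CPM in mutants, and 1.84, 0.478 and 1.15 CPM in wild type, for a log2 fold change of 1.22 that was 0.14 without tet2 mutant 3. Epidermis transcripts also varied between libraries: 11 listed genes summed to 122, 141 and 430 CPM in mutants, and to 225, 104 and 316 CPM in wild type. This sum was highest in tet2 mutant 3, as was col17a1b, while col17a1a was highest in wild type 1. The part of epidermis cells in the type XVII levels was not tested.

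The 7 members left untested for low counts were col8a1a, col9a1b, col28a1a, both COL10A1 genes, 1 of the 2 col19a1 IDs and 1 of the 2 col7a1l IDs. COL10A1, a marker of bone and of cartilage about to turn to bone, had 11, 52 and 7 counts in tet2 mutants and 5, 2 and 4 counts in wild type for ENSDARG00000101535, with mutants higher and no overlap, and 4, 2 and 10 counts in mutants and 7, 2 and 17 counts in wild type for ENSDARG00000054753. The first of these overlaps NT5DC1 on the opposite strand. One col19a1 ID (ENSDARG00000096073) had 9, 7 and 53 counts in mutants and 0, 3 and 27 counts in wild type, so libraries numbered 3 were high in both genotypes. The least abundant, col8a1a, had 0, 3 and 7 counts in mutants and 1, 0 and 4 counts in wild type. A count of 0 allows up to 3 counts by counting error alone. By library totals, without the TMM scaling of the other CPM, that is 0.0609 to 0.0727 CPM depending on the library.

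Over all members, 0 of the 49 tested were called, that is, had an adjusted p under 0.05 (edgeR with Benjamini-Hochberg), where 66 of 21893 genes, or 0.301%, were: 0.206% lower in mutants and 0.0959% higher. At that background fewer than 1 member would be expected to pass, so the count of 0 is no result about collagens. An unadjusted p under 0.05 was reached by 5 members (10.2%), namely col4a3, col4a5, col4a6, col18a1b and col16a1, all lower, against 11.9% of all genes in either direction and 6.93% lower. With the replicate number as a block, 13 members (26.5%) had an unadjusted p under 0.05, against 17.9% of all genes in either direction. Among them col23a1a and COL9A1 were higher in mutants and the others lower. The 13 included 7 of the 9 basement membrane genes, against 4 of 9 without the block. Those unblocked counts rested on few libraries: without tet2 mutant 1 they were 3 members and 1 of 9 basement membrane genes, and without tet2 mutant 3 they were 10 members and 4 of 9. Without wild type 2, wild type 3 or both libraries numbered 3, 2 of the 9 basement membrane genes had an unadjusted p under 0.05. No member passed the adjusted threshold with the block. The genotypes did not overlap for 8 of the 49 tested members (16.3%), all lower in mutants, and for 0 of them higher; among all genes tested, 10.3% did not overlap with mutants lower and 7.88% with mutants higher. The 8 were the 5 basement membrane genes described above, COL5A1, col16a1 and col28a1b. By direction, 35 of 49 members had log2 fold changes below 0, with a median of -0.23, and 14 were above 0.

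**Figure D4:**
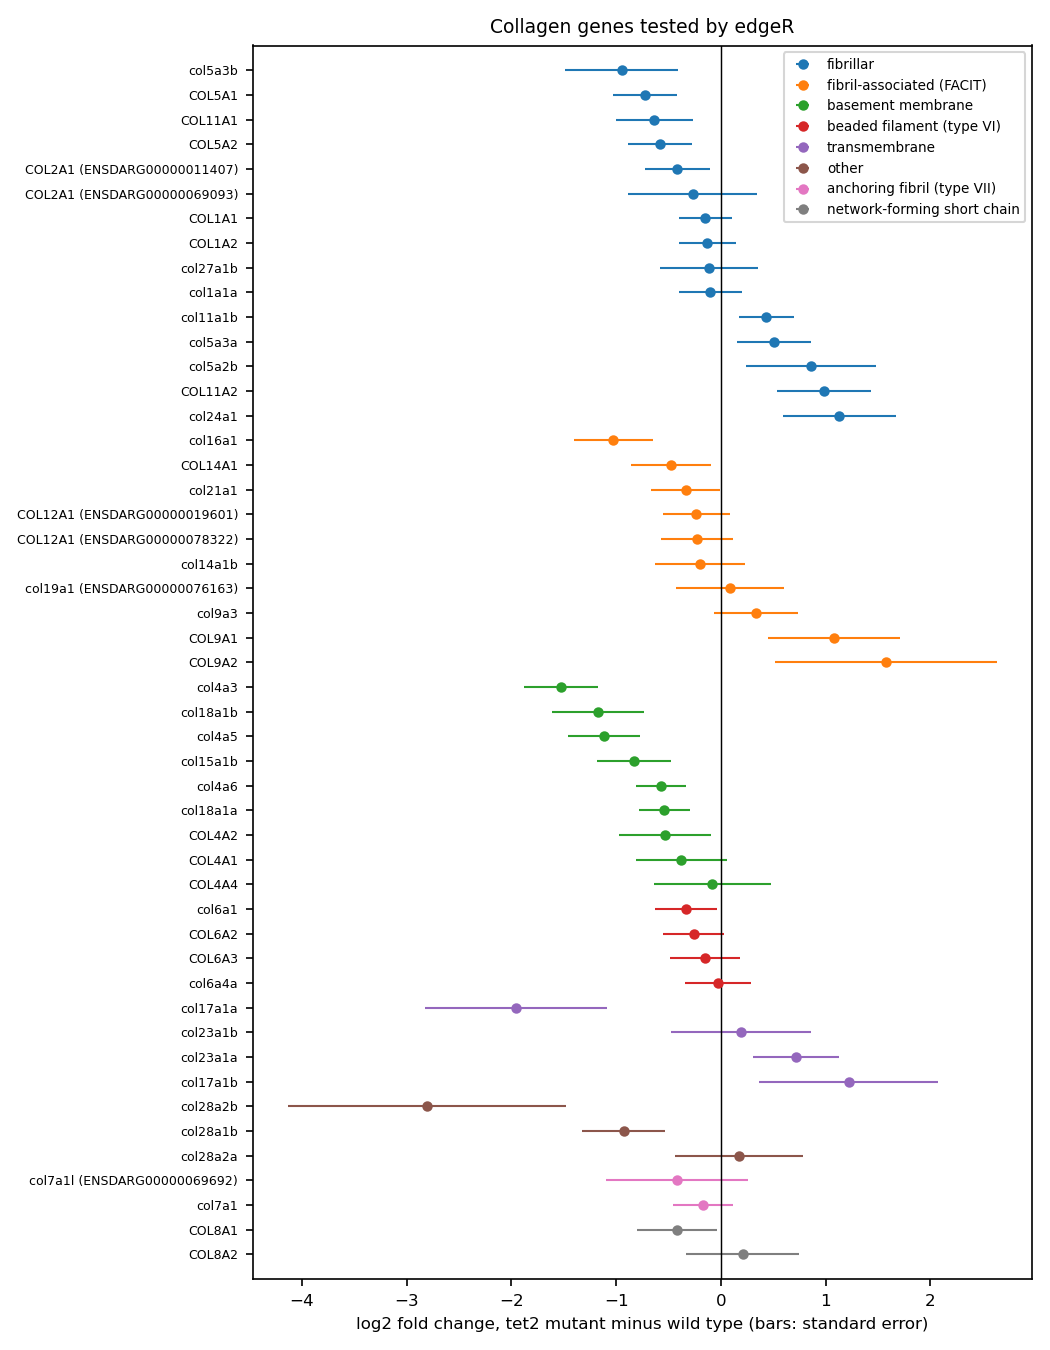
Log2 fold change, tet2 mutant minus wild type, of the 49 collagen genes tested by edgeR, grouped by class, with standard errors as bars. All 9 basement membrane and all 4 type VI estimates lie below 0, fibrillar genes lie on both sides, and 0 genes passed at an adjusted p under 0.05.

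A single mutant library weighed on this direction. Tet2 mutant 1 was the lowest of the 6 libraries for 24 of the 49 tested members (49.0%), against 16.9% of all genes, and wild type 3 was the highest for 19 (38.8%), against 13.6% of all genes. Without tet2 mutant 1, 27 of 51 members tested were below 0 with a median of -0.04, and 6 of 15 fibrillar genes were below 0. Of the basement membrane genes, 8 of 9 were below 0 with a median of -0.55 without that library. Without both libraries numbered 3, which had the highest egg gene sums within each genotype, 9 of 9 basement membrane genes were below 0 with a median of -0.64, and the median of all members was -0.40.

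The balance of fibrillar to basement membrane collagen varied between libraries more than between genotypes. Per kilobase the fibrillar sum was 2.82, 1.9 and 2.88 times the basement membrane sum in tet2 mutants 1, 2 and 3, and 3.22, 1.5 and 1.53 times in wild type. The ratio averaged 2.54 ± 0.548 in mutants and 2.08 ± 0.984 in wild type (SD, n = 3 each), with overlap. Wild type 1 had the highest ratio and wild type 2 the lowest.

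Genes that make, modify or bind collagen were described from lists of such genes. Of the 40 genes of collagen making that were tested, 26 were below 0 with a median log2 fold change of -0.22, and 0 passed. Among all genes tested, 48.1% were below 0 and 0.301% passed, so a count of 0 in a list of this size is no result about it. The smallest p was that of P3H1 (ENSDARG00000071212), which hydroxylates a proline of fibrillar chains: it had 1.28, 1.98 and 1.38 CPM in tet2 mutants 1, 2 and 3, and 13.3, 3.75 and 10.96 CPM in wild type. These did not overlap, and the log2 fold change was -2.59 (SE 0.50; adjusted p = 0.107, edgeR with Benjamini-Hochberg). FKBP10 (ENSDARG00000099183), a folding helper of procollagen, stood in the other direction, at 2.104, 2.17 and 2.45 CPM in mutants, and 0.25, 0.836 and 0.707 CPM in wild type (log2 fold change 1.90, SE 0.46; adjusted p = 0.168, edgeR with Benjamini-Hochberg). The other FKBP10 gene (ENSDARG00000045129) overlapped between genotypes, at 2.06, 1.57 and 12.5 CPM in mutants, and 1.12, 0.764 and 4.95 CPM in wild type. Library 3 was the highest in both genotypes, and adjusted p was 0.687 (edgeR with Benjamini-Hochberg).

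Collagen breakdown and receptor genes showed 0 calls as well, where 0.301% of all genes were called. Of 11 breakdown genes, 7 were below 0 with a median of -0.05. The matrix protease MMP9, also a neutrophil granule gene, had 253 ± 101 CPM in mutants and 135 ± 57.3 CPM in wild type (SD, n = 3 each). By library it had 209, 181 and 367 CPM in mutants, and 87.3, 198 and 118 CPM in wild type, with overlap. Its log2 fold change was 0.91 (SE 0.38; adjusted p = 0.422, edgeR with Benjamini-Hochberg). Of the inhibitor TIMP2, the less abundant gene (ENSDARG00000061226) had 32.4 ± 1.86 CPM in mutants and 40.4 ± 3.37 CPM in wild type (SD, n = 3 each). The more abundant TIMP2 gene (ENSDARG00000075261) had 578.4, 264.2 and 350.4 CPM in mutants, and 493.7, 371.1 and 372.2 CPM in wild type. Its genotypes overlapped, with a log2 fold change of -0.05 (SE 0.30). Of 12 receptor genes tested, 4 were below 0 with a median of 0.03. The collagen-binding integrin ITGA2 (ENSDARG00000062974) had 0.947, 0.838 and 0.593 CPM in mutants, and 1.91, 1.72 and 1.72 CPM in wild type (log2 fold change -1.17, SE 0.29; adjusted p = 0.18, edgeR with Benjamini-Hochberg). DDR1, a receptor kinase that collagen activates, had 4.61, 6.10 and 5.69 CPM in mutants, and 5.35, 11.6 and 9.57 CPM in wild type, with overlap.

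The other proteins of basement membranes lay on both sides of 0. Of 19 laminin, nidogen, perlecan and agrin genes tested, 10 were below 0 with a median of -0.07. None passed, where 0.301% of all genes did. Agrin, AGRN (ENSDARG00000079388), a heparan sulphate proteoglycan of basement membranes, had 8.77, 15.4 and 15.2 CPM in tet2 mutants, and 20.2, 30.0 and 28.3 CPM in wild type, with no overlap (fold change -0.996 on the log2 scale, SE 0.27; adjusted p = 0.213, edgeR with Benjamini-Hochberg). With the replicate number as a block it passed (log2 fold change -1.02; adjusted p = 0.035, edgeR with Benjamini-Hochberg), as did 2.14% of all genes. The laminin gene lama3 had 0.631, 1.14 and 0.85 CPM in mutants, and 1.14, 1.96 and 2.28 CPM in wild type. Of 18 other matrix genes tested, 11 were below 0 with a median of -0.27. Both POSTN genes, whose protein binds fibrillar collagen, were lower without overlap, at 2.00, 2.81 and 2.63 CPM in mutants and 4.01, 5.68 and 6.54 CPM in wild type for ENSDARG00000043806, and at 2.99, 4.10 and 4.41 CPM in mutants and 8.56, 5.78 and 6.52 CPM in wild type for ENSDARG00000104267. Neither passed (adjusted p = 0.18 and 0.265, edgeR with Benjamini-Hochberg).

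A property that the naming rule did not use, the length of exons, set most fibrillar genes apart from most other collagens. Fibrillar collagen genes are known for exons of 54 bases, each coding a whole number of glycine-led triplets. In the gene models of the count tables, 528 of the 2504 exons of collagen genes (21.1%) were exactly 54 bases long, against 1177 of 271871 exons of all other genes (0.433%). Among the 846 fibrillar exons 376 (44.4%) were of this length, with col24a1, of which 12 exons are annotated, the lowest at 16.7%. A multiple of 9 bases was met by 80.4% of fibrillar exons, 42.8% of basement membrane exons and 13.1% of exons of other genes. Only 18 of 432 basement membrane exons (4.17%) had 54 bases. The fibril-associated genes were split: COL9A1, COL9A2 and col9a3 each had 14 such exons among 32 (43.8%), a share like that of fibrillar genes, while the longer COL12A1 genes had 4 each. All 5 short-chain network genes had 3 exons, none of 54 bases. Overlapping exons of different transcripts were merged for these counts, which can change a length.

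**Figure D5:**
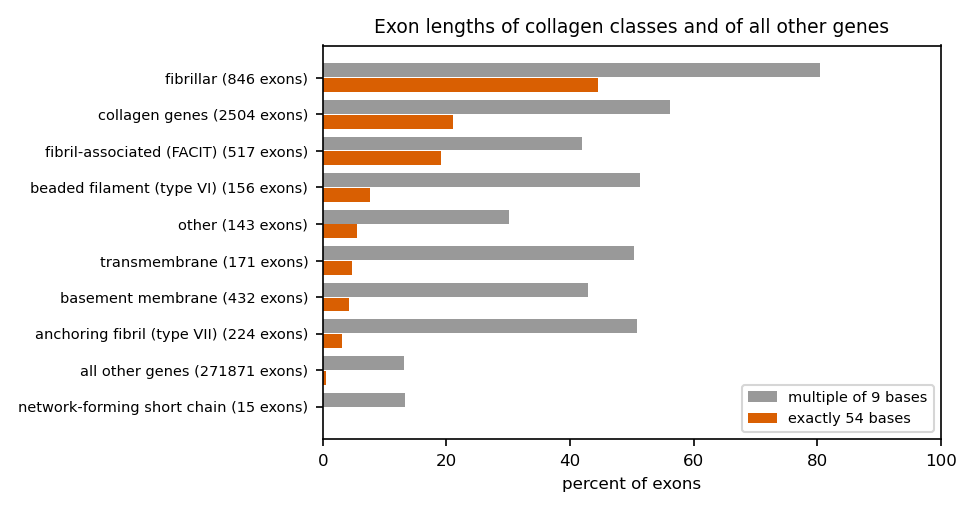
Percent of exons that are exactly 54 bases long (orange) or a multiple of 9 bases long (grey) in each collagen class, in all collagen genes and in all other genes of the count tables, with the number of exons beside each name. Fibrillar genes lead on both measures, at 44.4% and 80.4%, and all other genes are at 0.433% and 13.1%.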

How the data were processed

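Each library's table, as deposited by the authors, holds unnormalised counts for Ensembl genes beside exon coordinates and lengths. The submitters' processing notes name Trimmomatic 0.36, STAR 2.5.2b and GRCz10. How genes were counted (the program, the strand used, the gene annotation, and whether multi-mapping reads counted) is not given in the sources used here. A table of names gave symbols to 25752 of the 31484 IDs (81.8%), printed as it spells them. Among members, 10 share a symbol with another ID and are told apart by ID. Of the members, 17 overlap another annotated gene, so their reads are partly of uncertain origin.

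Counts were tested in R 4.3.3 with edgeR 4.0.16: filterByExpr by genotype, TMM scaling, and a two-sided quasi-likelihood F test of genotype over 21893 genes, with 9591 untested for low counts, and Benjamini-Hochberg adjustment over all genes tested at a threshold of 0.05. CPM are TMM-scaled; class sums were given no test. The members, classes, lists and rule for named genes were chosen with earlier results of these data known. That rule named members called, the 10 highest per kilobase, the 5 smallest p, and the 4 largest changes in each direction. Lists name genes called or, for matrix lists, the 2 with the smallest p. Some genes were described outside that rule: the named fibroblast and bone genes, cdh16, both SLC20A1 genes, the more abundant TIMP2 gene and FKBP10 (ENSDARG00000045129). So were members such as COL5A1 and COL4A4. Intervals and floors cover counting error only.

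Labels number the libraries 1 to 3 in each genotype. Each library's log2 CPM less its genotype's mean was compared between genotypes, over 17535 genes with a mean of at least 1 CPM. Same-numbered libraries had correlations of r = 0.435, 0.577 and 0.686, and other pairs had -0.496 to 0.121. Taking off the genotype means pushes the other pairs down when same-numbered pairs are above 0, so their low values are no separate evidence. The replicate block was therefore fitted only as an alternative, and its pairing is read from the data, not the labels. Other alternatives were DESeq2 1.42.0, RLE scaling, library totals, no filter, each library left out, and both libraries numbered 3 left out. No 2 libraries of a genotype were copies (chi-square per degree of freedom 51.9 to 154).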

Additional observations from a re-analysis of the deposited data

How the results depend on the processing

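The count of 0 collagen genes called held with RLE scaling, library totals, no filter, the replicate block, each library left out (0 to 0) and both libraries numbered 3 left out, and DESeq2 called 1, col4a5. The count over all genes, 66, was 999 by DESeq2, 36 with library totals only, 468 with the replicate block, 312 without both libraries numbered 3, and 2 to 15 when each library was left out in turn (2 without tet2 mutant 1 or 2, 3 without wild type 2). The block turned the call of no member. Summed class ratios (log2) moved by less than the spread between libraries: fibrillar ran from -0.45 to 0.02, basement membrane from -0.74 to -0.26, type VI from -0.51 to 0.06 and all collagens from -0.54 to -0.07 over the libraries left out. The sign of 5 named members, including the large estimate of COL9A2, turned when libraries were left out, with ranges of -0.45 to 0.05 for COL1A1, -0.40 to 0.13 for col1a1a, -0.46 to 0.06 for COL1A2, -0.32 to 0.25 for col6a4a and -0.17 to 2.24 for COL9A2; the cause was not tested. The other 16 named members kept their direction in every fit. Depth limits members under about 20 counts per library, such as col4a3.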
